A study of Mus musculus with 8 samples.

Results

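Expression of 10 genes that encode repressors of embryonic and fetal globin genes, or cofactors of these repressors, was examined in red cell precursors of the primitive lineage, taken from mouse yolk sacs. The members are Bcl11a, Zbtb7a, Dnmt1, Mbd2, Chd4, Hdac1, Hdac2, Kdm1a, Nr2c1 and Nr2c2. They were chosen by their known role, with earlier results of these arrays known. All 10 had a probe set annotated to them, and together they held 20 of the 20380 probe sets that name 1 gene, or 10 of 12393 genes. None of these 20 probe sets was also annotated to another gene. RNA came from 4 samples labelled KLF2-/- (replicates 11, 12, 13 and 14) and 4 labelled wild type FVB/N (replicates 3, 5, 7 and 9), all at embryonic day 9.5. Klf2 encodes a zinc finger transcription factor, and FVB/N is an inbred mouse strain. Laser capture was used to take the erythroid cells out of frozen sections of 8 micrometres, and every sample pooled material of 2 to 4 yolk sacs from 2 litters. Knockout samples held 3600 to 4400 cells each, and no cell number is given for wild type. The labels give 30 to 80 slides and 10 to 20 ng of RNA for knockout, against 12 to 50 slides and 10 to 39 ng for wild type. These are ranges per group, and their part in the values was not tested. No source used here names the strain of the KLF2-/- line, so genotype and strain cannot be told apart. The sample labels give the dams of the knockout embryos as KLF2-/-, and the series text as KLF2+/-.

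Red cell precursors of the yolk sac make embryonic globins, and the genes for these are later shut off while adult globins take over. BCL11A and ZBTB7A are zinc finger proteins that bind at the globin loci and silence embryonic and fetal globin genes in definitive red cells. Both recruit the NuRD complex, in which CHD4 remodels nucleosomes, HDAC1 and HDAC2 remove acetyl groups from histones, and MBD2 reads methylated DNA. DNMT1 copies DNA methylation after replication. NR2C1 and NR2C2, also called TR2 and TR4, are orphan nuclear receptors that bind direct repeats in embryonic and fetal globin promoters, and they work with DNMT1 and with the histone demethylase KDM1A, also called LSD1.

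The promoters of the globin genes on which these factors act are shown first, because the level of the globins is set beside the members further on. The letters are the 250 bases before the start site, from RefSeq on GRCm38.p6, 5′ to 3′ on the strand of the gene. Capitals mark matches on either strand to TGACCA, a motif of BCL11A, and to AGGTCA, the single repeat unit of nuclear receptors such as NR2C1 and NR2C2. They also mark matches on either strand to CCNCNCCC, a pattern that takes in some forms of the CACCC box bound by Klf factors and misses others. TGACCA and the reverse complement of AGGTCA share 5 letters but cannot match at the same place. Hbb-y, an embryonic beta-like globin gene, lies on the minus strand (chr7:103853208-103853457), Hba-x, the embryonic alpha-like gene, on the plus strand (chr11:32276350-32276599), and Hbb-bs, an adult beta globin gene, on the minus strand (chr7:103827929-103828178).
Hbb-y: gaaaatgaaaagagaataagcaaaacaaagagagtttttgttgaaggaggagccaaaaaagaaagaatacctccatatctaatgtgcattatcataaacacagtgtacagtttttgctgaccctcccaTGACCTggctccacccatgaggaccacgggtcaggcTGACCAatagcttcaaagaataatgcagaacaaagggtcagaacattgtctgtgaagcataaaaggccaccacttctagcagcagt
Hba-x: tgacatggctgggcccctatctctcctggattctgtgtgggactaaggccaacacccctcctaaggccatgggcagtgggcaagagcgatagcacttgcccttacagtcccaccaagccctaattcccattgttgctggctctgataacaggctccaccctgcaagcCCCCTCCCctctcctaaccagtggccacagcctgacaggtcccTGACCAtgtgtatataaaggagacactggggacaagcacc
Hbb-bs: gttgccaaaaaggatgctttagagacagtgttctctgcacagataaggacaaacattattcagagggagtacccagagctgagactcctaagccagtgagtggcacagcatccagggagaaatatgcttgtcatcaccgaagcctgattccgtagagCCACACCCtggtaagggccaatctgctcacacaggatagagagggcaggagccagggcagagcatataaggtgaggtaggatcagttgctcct
The Hbb-y window held 1 TGACCA that begins 86 bases before the start site and 1 reverse AGGTCA, that is TGACCT, that begins 122 bases before it. The Hba-x window held 1 TGACCA, 40 bases before the start site, and 1 match to CCNCNCCC. That match, CCCCTCCC, does not contain the letters CACCC. The Hbb-y and Hba-x windows also hold CTCCACCC, which contains CACCC but is missed by the pattern and stays in lower case. Hbb-bs held neither of the first pair of motifs and 1 CACCC match, CCACACCC, 93 bases before its start. Of 32851 promoter windows of the same length, 11.4% held TGACCA, 14.02% AGGTCA and 45.9% CCNCNCCC. RefSeq windows matched 8 of the 10 members, with 11 start sites among them. Bcl11a held 8 and Zbtb7a held 7 matches to CCNCNCCC, some of which overlap each other. Of these 8 members Kdm1a held 1 AGGTCA and the others none, and no window of a member held TGACCA. A match describes the letters only.

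Values are log2 expression values as normalised by the authors, 1 per probe set and array, and they run from 2.47 to 14.17 with array medians of 5.08 to 5.20. Differences are knockout minus wild type on this scale. Klf2 itself ranged from 5.38 to 7.15 in the knockout arrays, against 4.97 to 5.70 in wild type, so its probe set does not bear out the labels. No source used here places this probe set relative to the deletion, and the groups keep the names of their labels. Arrays did not separate by genotype. Wild-type arrays 3 and 5 stood apart on the first principal component (33.1% of the variance). The second (24.4%) set knockout array 14 apart, and the third (18.4%) knockout array 13. As a check of the labelled cell type, Hbb-bh1, an embryonic beta-like globin gene, was near the top of the scale on every array, at 14.01 to 14.13 in knockout and 14.04 to 14.17 in wild type.

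Dnmt1 was the member with the largest difference. Its brighter probe set, 1435122_x_at, measured 9.28, 9.47, 7.94 and 8.75 in knockout replicates 11, 12, 13 and 14, against 10.09, 9.76, 9.88 and 9.58 in wild-type replicates 3, 5, 7 and 9. Every knockout array lay below every wild-type array, and knockout array 13 was the lowest of all. The means were 8.86 ± 0.68 in knockout and 9.83 ± 0.21 in wild type (SD, n = 4 each). The log2 difference was -0.97 (SE 0.31, 95% confidence interval -1.67 to -0.27), or 1.96-fold lower. The exact permutation p, two-sided, was 0.0286, the smallest that 4 against 4 arrays can give. The limma fit across all 22626 probe sets gave an unadjusted p of 0.0123 and an adjusted p of 0.860, so the difference did not pass. Without knockout array 13 it was -0.66, and without knockout arrays 13 and 14 it was -0.46, which was 2.13 times smaller than on all arrays. Without wild-type arrays 3 and 5 it was -0.87, no longer past an unadjusted 0.05 by limma. The suffix x marks a probe set in which some probes can also match other transcripts.

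The other Dnmt1 probe set, 1422946_a_at, did not separate the groups. It measured 7.91, 8.27, 6.90 and 6.91 in knockout arrays 11 to 14, against 7.91, 7.79, 7.79 and 8.06 in wild type. Knockout arrays 13 and 14 were again the low ones, while 11 and 12 lay within or above the wild-type range. This probe set differed by -0.39 (SE 0.31, limma adjusted p = 0.887), and by 0.20 without knockout arrays 13 and 14. The same 2 knockout arrays were also the extremes of the erythroid and the visceral endoderm markers. The mean of 9 measured erythroid markers, of 10 listed, deviated by -1.24 in knockout array 13 and by 0.69 in knockout array 14. That of 13 visceral endoderm markers deviated by 0.88 and by -1.89 in these arrays. Summed levels were taken over the unlogged values of a list and then put on the log2 scale. The summed level of the erythroid list ran from 11.40 to 13.50 in knockout and from 12.60 to 13.40 in wild type. That of the endoderm list ran from 12.40 to 15.14 in knockout and from 14.37 to 14.76 in wild type. No value in the table is 0. The part of cell mixture in the Dnmt1 values was not tested, and in such pooled captures fewer cells of a type and less RNA per cell cannot be told apart.

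**Figure D1:**
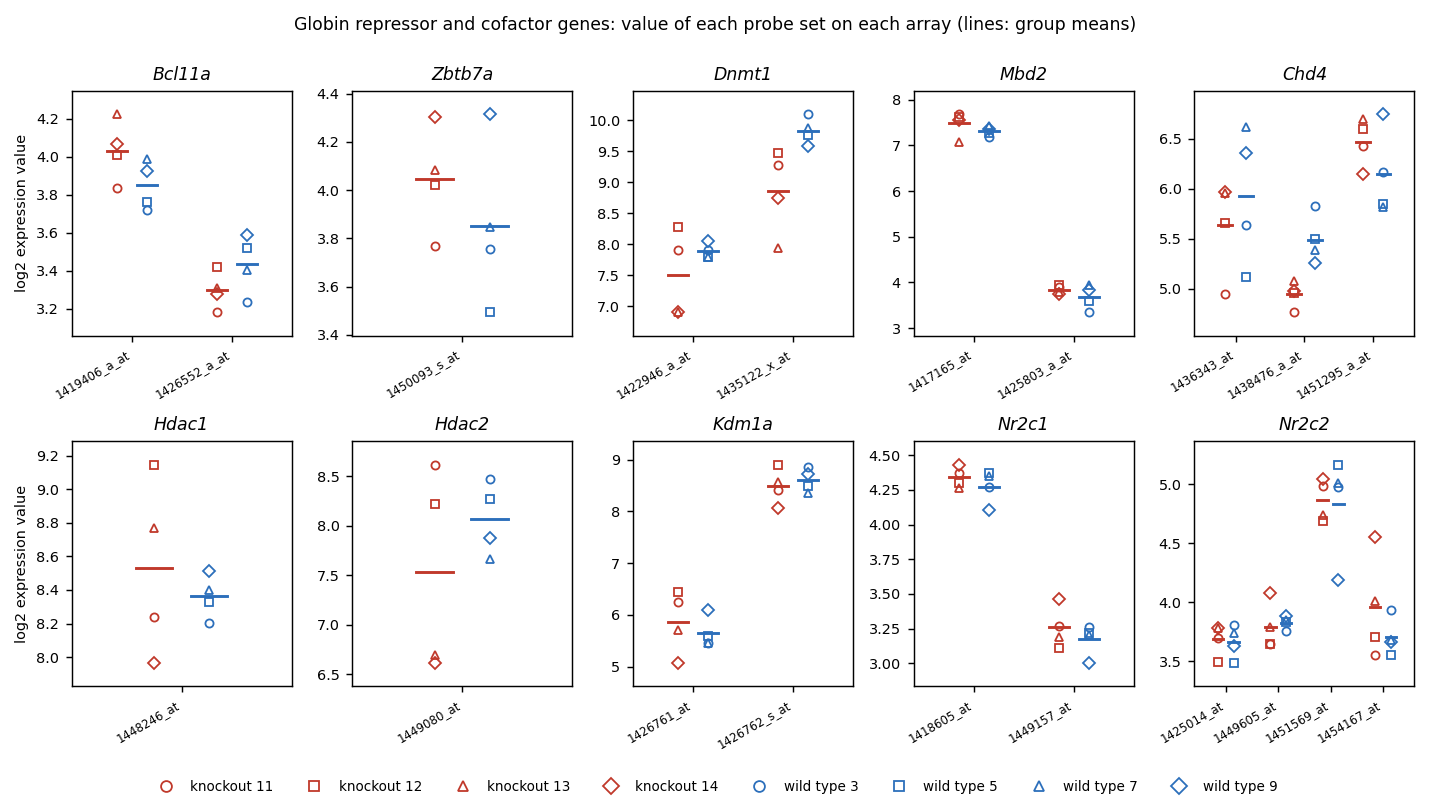
Log2 expression value (y axis) of each probe set of the 10 genes (x axis) on every array, with knockout in red at the left and wild type in blue at the right of each pair. Each symbol is 1 array and each line a group mean, and y axes differ between genes. In Dnmt1 1435122_x_at and Chd4 1438476_a_at the knockout arrays lie below all wild-type arrays.

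Chd4, the nucleosome remodeller of NuRD, had 3 probe sets that differed in sign. Probe set 1438476_a_at measured 4.77, 4.96, 5.08 and 4.98 in knockout arrays 11 to 14, against 5.83, 5.50, 5.39 and 5.26 in wild-type arrays 3, 5, 7 and 9. The groups did not overlap, and the closest arrays were knockout array 13 at 5.08 and wild-type array 9 at 5.26. The standard deviation within groups, 0.20, lay at percentile 27.9 of all probe sets. The means were 4.95 ± 0.13 in knockout and 5.49 ± 0.24 in wild type (SD, n = 4 each), with a log2 difference of -0.55 (SE 0.15, 95% confidence interval -0.89 to -0.21), or 1.46-fold lower. The exact permutation p was 0.0286, limma's unadjusted p 0.00554 and its adjusted p 0.860. Without wild-type arrays 3 and 5 the difference was -0.38.

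The brightest Chd4 probe set, 1451295_a_at, went the other way. It measured 6.43, 6.59, 6.69 and 6.15 in knockout, against 6.17, 5.85, 5.82 and 6.74 in wild type. Wild-type array 9 was the highest of all 8, and the groups overlapped. Its log2 difference was 0.32 (SE 0.22, limma adjusted p = 0.870), and it was 0.19 without wild-type arrays 3 and 5. Leaving out wild-type array 9 turned it to 0.52, past an unadjusted 0.05 by limma. The third, 1436343_at, differed by -0.30 (SE 0.36). Without wild-type arrays 3 and 5 this became -0.85, past an unadjusted 0.05 by limma, and without knockout arrays 13 and 14 it was -0.63. The 3 Chd4 probe sets therefore give no single direction for the gene.

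Mbd2, the reader of methylated DNA in NuRD, differed little between the groups. Probe set 1417165_at measured 7.68, 7.63, 7.07 and 7.55 in knockout arrays 11 to 14, against 7.18, 7.28, 7.43 and 7.35 in wild type. Of the knockout arrays, 3 lay above all wild-type arrays and knockout array 13 lay below them. On average Mbd2 differed by 0.17 (SE 0.16, limma adjusted p = 0.897). Without knockout array 13 it was 0.31, and without knockout arrays 13 and 14 it was 0.34, both past an unadjusted 0.05 by limma, and without wild-type arrays 3 and 5 it was 0.09. The dim probe set 1425803_a_at differed by 0.17 (SE 0.15), and by -0.05 without wild-type arrays 3 and 5.

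The histone deacetylases Hdac1 and Hdac2 had 1 probe set each. Hdac2 measured 8.61, 8.22, 6.70 and 6.62 in knockout arrays 11 to 14, against 8.47, 8.27, 7.66 and 7.87 in wild-type arrays 3, 5, 7 and 9. As with Dnmt1 1422946_a_at, knockout arrays 13 and 14 were low, and the other knockout arrays lay within or above the wild-type range. The log2 difference was -0.53 (SE 0.46, 95% confidence interval -1.57 to 0.51, limma adjusted p = 0.893), and it was 0.35 without knockout arrays 13 and 14 and -0.23 without wild-type arrays 3 and 5. The standard deviation of Hdac2 within groups, 0.77, lay at percentile 96.7 of all probe sets. Hdac1 measured 8.24, 9.15, 8.77 and 7.97 in knockout, against 8.20, 8.33, 8.40 and 8.51 in wild type. The knockout arrays held both the highest and the lowest values. Its log2 difference was 0.17 (SE 0.24, 95% confidence interval -0.38 to 0.72, limma adjusted p = 0.941), and it was 0.33 without knockout arrays 13 and 14, 0.07 without wild-type arrays 3 and 5 and -0.04 without knockout array 12.

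Kdm1a, the demethylase of histone H3 that works with CoREST and with the NR2C1 and NR2C2 receptors, showed no difference beyond the spread. Its brighter probe set, 1426762_s_at, measured 8.42, 8.90, 8.56 and 8.07 in knockout arrays 11 to 14, against 8.85, 8.49, 8.36 and 8.72 in wild type. Its log2 difference was -0.12 (SE 0.19, 95% confidence interval -0.56 to 0.32), and it was 0.05 without knockout arrays 13 and 14 and -0.05 without wild-type arrays 3 and 5. Probe set 1426761_at measured 6.24, 6.44, 5.71 and 5.08 in knockout, against 5.45, 5.59, 5.46 and 6.10 in wild type, a difference of 0.22 (SE 0.30). Without knockout arrays 13 and 14 it was 0.69, past an unadjusted 0.05 by limma, and without wild-type arrays 3 and 5 it was 0.09.

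Both zinc finger repressors were measured only by dim probe sets. All probe sets of Bcl11a, Zbtb7a, Nr2c1 and Nr2c2 had means below 5.14, the median of all probe sets, and no source used here says how far such values lie above background. Bcl11a 1419406_a_at measured 3.83, 4.01, 4.22 and 4.07 in knockout arrays 11 to 14, against 3.72, 3.76, 3.99 and 3.92 in wild-type arrays 3, 5, 7 and 9. Knockout arrays 12, 13 and 14 lay above all wild-type arrays, and knockout array 11 lay among them. The log2 difference was 0.18 (SE 0.13, 95% confidence interval -0.11 to 0.48, limma adjusted p = 0.872), and it was 0.08 without wild-type arrays 3 and 5 and 0.07 without knockout arrays 13 and 14. Its second probe set, 1426552_a_at, differed by -0.14 (SE 0.12). Zbtb7a measured 3.77, 4.02, 4.08 and 4.30 in knockout, against 3.76, 3.49, 3.85 and 4.31 in wild type. All knockout values lay inside the wild-type range, and the log2 difference was 0.19 (SE 0.19, 95% confidence interval -0.25 to 0.63), and it was -0.04 without wild-type arrays 3 and 5 and 0.04 without knockout arrays 13 and 14. Klf1, the erythroid factor that activates Bcl11a in definitive cells, was at 9.66 ± 0.90 in knockout and 9.83 ± 0.81 in wild type (SD, n = 4 each).

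The nuclear receptors Nr2c1 and Nr2c2 had differences near 0 by their brightest probe sets. Nr2c1 1418605_at measured 4.37, 4.30, 4.26 and 4.43 in knockout arrays 11 to 14, against 4.27, 4.37, 4.35 and 4.11 in wild type. The log2 difference was 0.07 (SE 0.11). Its standard deviation within groups, 0.10, lay at percentile 4.94 of all probe sets, and that of the brightest Nr2c2 probe set, 0.34, at percentile 64.0. Nr2c2 1451569_at measured 4.99, 4.69, 4.74 and 5.05 in knockout, against 4.98, 5.16, 5.01 and 4.19 in wild type. Wild-type array 9 held the lowest value of both these probe sets. The difference of Nr2c2 was 0.03 (SE 0.22, 95% confidence interval -0.46 to 0.53), and 0.27 without wild-type arrays 3 and 5. Its other 3 probe sets differed by -0.04 to 0.25, and by -0.18 to -0.07 without knockout arrays 13 and 14. The second Nr2c1 probe set differed by 0.09 (SE 0.13).

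**Figure D2:**
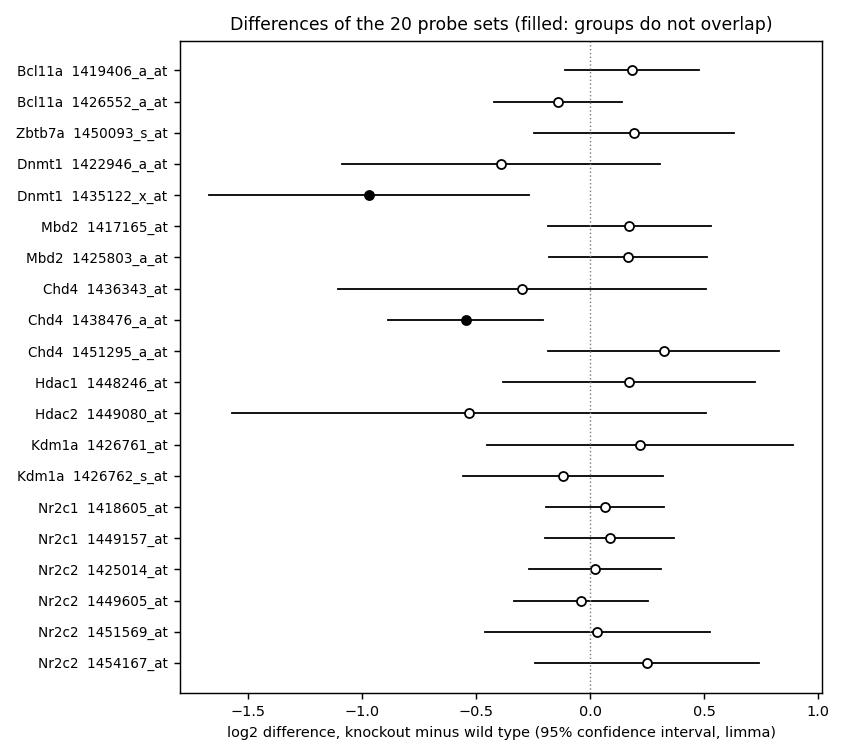
Log2 difference, knockout minus wild type (x axis), of each of the 20 probe sets (y axis), with its 95% confidence interval from limma. Filled points mark probe sets whose groups do not overlap, Dnmt1 1435122_x_at at -0.97 and Chd4 1438476_a_at at -0.55. The other 18 intervals include 0.

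By limma, 0 of the 20 member probe sets and 0% of all 22626 passed an adjusted p of 0.05, and the adjusted p of the members ran from 0.860 to 0.9902. At an unadjusted p under 0.05 there were 2 of 20, both lower in knockout, where 5.4% of all probe sets were called, 1.92% as lower and 3.48% as higher. The groups did not overlap at the same 2 of 20, against 2.99% of all probe sets, 1.38% as lower and 1.61% as higher. Both are probe sets of genes whose other probe sets did not separate the groups. Of the 20 differences, 12 lay above 0 and 8 below, against 47.8% below 0 over all probe sets, with a median of 0.05 against 0.01. With each array centred on its median, 9 lay below 0. The 2 called probe sets were among the 10 with means at or above the median, and 0 of the 10 dimmer ones had an unadjusted limma p under 0.05. Chd4 1438476_a_at lay close to that limit, with a mean of 5.22 against the median of 5.14, and all its knockout values lay below the median. Of 7 members with several probe sets, 4 had probe sets of both signs.

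The authors' deposited table gives each probe set a signed S-score and its p-value and q-value. Its direction is not stated in the file. It correlated with the log2 differences over all probe sets (Pearson's r = 0.80 across probe sets, which are not independent), so a negative score is read as lower in knockout. In the authors' deposited table Dnmt1 1435122_x_at scored -4.51 (q = 0.00228), which placed it 60th by size of score. It was the 1 of 20 member probe sets with a q under 0.05, where 0.968% of all probe sets had one, 0.464% with a negative score. In the authors' deposited table Dnmt1 1422946_a_at scored -1.08 and Chd4 1438476_a_at -1.14, both with a q of 1.00. Chd4 1451295_a_at scored 2.81 (q = 0.198) and Hdac2 -1.70 (q = 0.824) in the authors' deposited table. The S-scores of Bcl11a were 0.43 and -0.61 and that of Zbtb7a was 0.08 there.

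Partners of the members were examined with each gene represented by its probe set of highest mean. At an unadjusted limma p under 0.05, 3.48% of all probe sets were called as higher in knockout and 1.92% as lower. The differences of partners were not taken again without wild-type arrays 3 and 5. Of the other NuRD subunits 9 of 10 were measured, with a median difference of 0.21 and 7 above 0. Their mean deviation was -0.19 and -0.39 in wild-type arrays 3 and 5, and -0.03 and 0.14 in 7 and 9. In knockout arrays 11 to 14 it was 0.20, 0.10, -0.03 and 0.21. Mbd3, which takes the place of MBD2 in a separate form of NuRD, was at 6.82 ± 0.53 in knockout and 5.99 ± 0.58 in wild type (SD, n = 4 each), with a log2 difference of 0.83 (SE 0.34, limma adjusted p = 0.860). It was the 1 gene of the list with an unadjusted limma p under 0.05. Gatad2a differed by 0.39 (SE 0.23) and Mta2 by 0.56 (SE 0.39). In wild-type arrays 3, 5, 7 and 9 Mbd3 was at 5.68, 5.32, 6.40 and 6.55, and Mta2 at 5.26, 5.77, 6.40 and 7.26. Knockout values ran from 6.12 to 7.37 for Mbd3 and from 6.32 to 7.04 for Mta2. Of 7 measured CoREST and GFI1 partners of Kdm1a, 0 had an unadjusted limma p under 0.05, and the median was 0.00. Those of smallest p were Hmg20b (0.36), Rcor1 (-0.19), the scaffold that binds KDM1A, and Phf21a (-0.22). In the list of Sin3 and NCoR corepressors, 6 of 9 measured, the median was 0.03, with Sin3a at -0.35, Tbl1x at 0.24 and Tbl1xr1 at -0.11.

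The de novo methyltransferases Dnmt3a and Dnmt3b differed by -0.41 (SE 0.36) and -0.28 (SE 0.19), and Mbd4, a repair enzyme that binds methylated sites, by 0.28 (SE 0.14). Of 7 measured genes of that list, 0 had an unadjusted limma p under 0.05 and the median was 0.00. Histone methylation repressors (7 of 8 measured) had a median of 0.16, with the arginine methyltransferase Prmt5 at 0.67 (SE 0.38), the Polycomb gene Suz12 at -0.36 (SE 0.21) and Trim28 at 0.65 (SE 0.47). Prmt5 was at 5.54 and 5.56 in wild-type arrays 3 and 5, 6.67 and 7.06 in 7 and 9, and 6.43 to 7.39 in knockout. The other repressor transcription factors of globin genes (8 of 9 measured) had a median of 0.01, and the 3 of smallest p were Nfix (-0.20), Cbfa2t3 (0.27) and Nfia (0.10).

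Among factors upstream of Bcl11a (7 of 8 measured), Igf2bp1, an RNA-binding protein of fetal programmes, was at 6.86 ± 0.40 in knockout and 6.32 ± 0.20 in wild type (SD, n = 4 each). Its log2 difference was 0.55 (SE 0.21, limma adjusted p = 0.860), and it was the 1 gene of the list with an unadjusted limma p under 0.05, where 3.48% of all probe sets were called as higher. Lin28a differed by 1.00 (SE 0.74) and Igf2bp3 by -0.27 (SE 0.36). Lin28a was at 5.47 and 5.45 in wild-type arrays 3 and 5, 6.96 and 8.05 in 7 and 9, and 5.71 to 8.71 in knockout. Of 9 globin activators 0 had an unadjusted limma p under 0.05, with a median of 0.32. This list includes Klf2, the gene named in the labels, which had the smallest p and differed by 0.77 (SE 0.35). Ldb1 and Klf4 differed by 0.55 (SE 0.39) and 0.40 (SE 0.40). The mean deviation of the list was -0.59 and -0.54 in wild-type arrays 3 and 5, and 0.19 and 0.45 in 7 and 9. In knockout arrays 11 to 14 it was 0.37, 0.10, -0.53 and 0.56. Over all lists of partners, activators and markers 0 genes passed an adjusted p of 0.05 by limma. Of the partners and activators named, Hmg20b, Mbd4, Nfix, Nfia and Klf4 were dim. Their means lay below 5.14, the median of all probe sets.

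Markers of other yolk sac cells were compared in the same way, where again 3.48% of all probe sets were called as higher in knockout at an unadjusted limma p under 0.05. Of 12 endothelial markers 10 had a difference above 0, with a median of 0.34, led by Cldn5 (1.31), Esam (0.83) and Sox18 (0.54), and 3 were higher in knockout at an unadjusted limma p under 0.05. Their summed level, taken over unlogged values and put on the log2 scale, ran from 9.67 to 10.52 in knockout and from 9.41 to 10.0003 in wild type. Of 9 macrophage markers 7 had a difference above 0, with Mrc1 at 0.62, Cd14 at 0.34 and Ptprc at 0.49, of which 2 were higher in knockout at an unadjusted limma p under 0.05, and summed levels of 9.06 to 10.15 in knockout and 8.93 to 9.13 in wild type. Over 10 mesenchyme and mesothelium markers the median difference was -0.13, with 4 above 0 and 6 below, Sparc at 1.27, Lum at 0.55 and Twist1 at -0.21. Their summed levels were 12.25 to 14.04 in knockout and 12.78 to 13.72 in wild type. Visceral endoderm markers had a median of -0.40 over 13 genes, 4 above 0 and 9 below. The 3 of smallest p were Mttp at -1.18, Foxa2 at -0.53 and Cubn at -1.14. Erythroid markers had a median of -0.17 over 9 genes, 3 above 0 and 6 below. Those of smallest p were Slc4a1 at -0.43, Tfrc at -0.58 and Epb42 at -0.32. Of the markers named, Cd14, Ptprc and Twist1 were dim, with means below 5.14, the median of all probe sets. The part of these cells in the members' values was not tested.

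**Figure D3:**
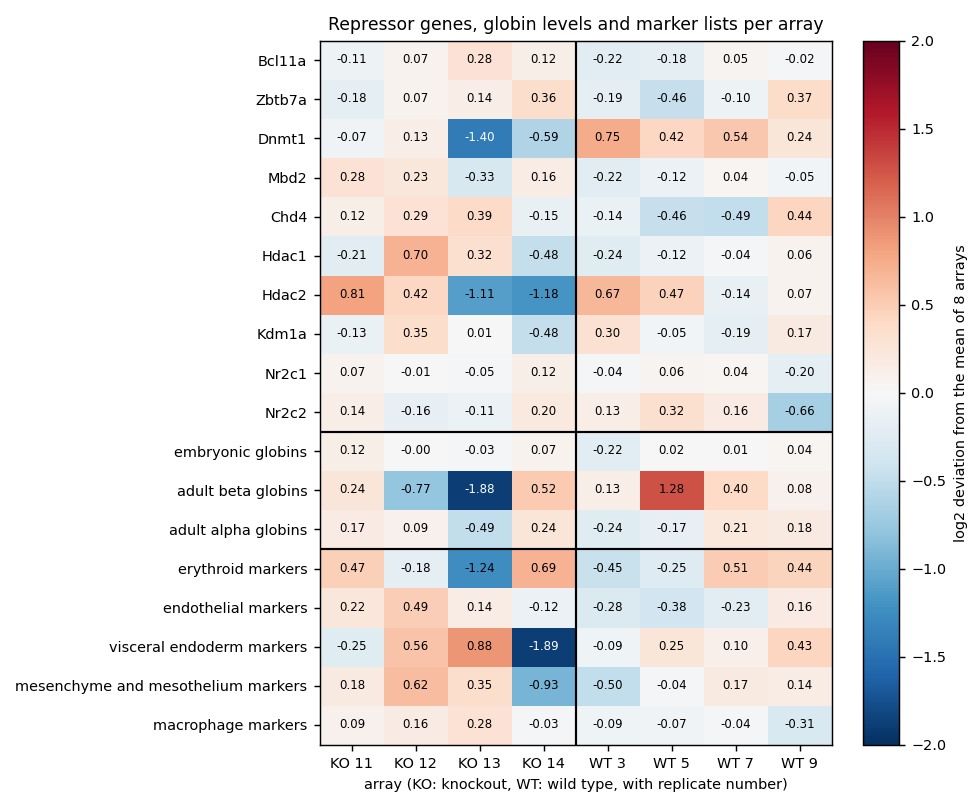
Log2 deviation of each array from the mean of the 8 arrays (colour and printed value), for the brightest probe set of each of the 10 genes, for 3 globin levels and for 5 marker lists (rows), with the knockout arrays left of the wild-type arrays (columns). Dnmt1 and Hdac2 are low in knockout arrays 13 and 14, and adult beta globins are lowest in knockout array 13.

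The members were then set beside the globin levels of the same arrays. The embryonic level, the mean log2 value of Hbb-bh1, Hbb-y and Hba-x, was 13.58, 13.45, 13.43 and 13.52 in knockout arrays 11 to 14, against 13.23, 13.47, 13.46 and 13.49 in wild-type arrays 3, 5, 7 and 9. It varied by 0.35 over the 8 arrays, with wild-type array 3 the lowest. The 3 probe sets of this mean did not move alike there. In wild-type array 3 Hba-x was the lowest of all 8 arrays (11.82), Hbb-y 1436823_x_at the highest (13.81) and Hbb-bh1 between the others (14.07). The other Hbb-y probe sets were not highest in this array. Probe set 1436717_x_at was at 13.78 there, against 13.81 in wild-type array 5. Probe set 1450621_a_at was at 12.87 there, near its low end, against 13.23 in wild-type array 7. The adult beta level, from the probe set shared by the adult genes Hbb-bs, Hbb-bt, Hbb-b1 and Hbb-b2, was 11.75, 10.74, 9.64 and 12.03 in knockout, against 11.64, 12.79, 11.91 and 11.60 in wild type. It varied far more, by 3.15, and knockout array 13 was the lowest. The adult alpha level, the mean of 3 probe sets shared by Hba-a1 and Hba-a2, was 13.29, 13.21, 12.64 and 13.36 in knockout, against 12.89, 12.96, 13.34 and 13.30 in wild type. None of the 3 levels differed between the groups beyond the spread of the arrays, with exact permutation p-values of 0.371 for embryonic, 0.257 for adult beta and 0.971 for adult alpha globins. In the authors' deposited table the adult beta probe set scored -3.54 (q = 0.0435).

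No member followed a globin level closely enough to pass. Of 30 relations (10 members by 3 globin levels over 8 arrays), 0 passed after Benjamini-Hochberg adjustment, with a lowest adjusted p of 0.334 for Pearson's r and 0.137 for Spearman's rho by exact permutation. With unadjusted exact permutation p-values 3 were under 0.05 by r and 3 by rho. Mbd2 went with the adult alpha level at r = 0.83 (exact permutation p = 0.0111) and rho = 0.64 (exact p = 0.0962). Without wild-type array 3 and knockout array 13, the arrays farthest from the median, r was 0.49, and within groups, as deviations from each group's mean, it was 0.91. The relation rests in part on these 2 arrays.

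Chd4, by its brightest probe set, went against the adult beta level at r = -0.73 (exact permutation p = 0.0288, adjusted 0.424) and rho = -0.83 (exact p = 0.0154, adjusted 0.231). Without wild-type array 5 and knockout array 13 r was -0.59, and within groups it was -0.64. Over 12 alternatives, of which 1 took the mean over the probe sets of a gene, r of Chd4 ran from -0.86 to -0.38. The other probe sets of Chd4, and those of the other members, were not set beside the globin levels on their own. The probe sets used for Bcl11a, Nr2c1 and Nr2c2 were dim. Bcl11a had r = -0.71 with adult beta globins (exact permutation p = 0.0467) and rho = -0.38 (exact p = 0.360), and r was -0.04 without the same 2 arrays, so this relation rests on them. Nr2c2 had rho = 0.90 with adult beta globins (exact p = 0.00456, adjusted 0.137) and r = 0.43, and r was 0.55 within groups, 0.40 without the same 2 arrays and 0.92 without wild-type array 9. Nr2c1 had rho = 0.76 (exact p = 0.0368, adjusted 0.368) and r = 0.38, and r was 0.73 within groups, 0.33 without the same 2 arrays and 0.70 without wild-type array 9. Dnmt1 had r = 0.66 with adult beta globins (exact permutation p = 0.0847) and -0.18 without wild-type array 5 and knockout array 13. Hdac1 had r = -0.67 (exact permutation p = 0.0759) and rho = -0.69 (exact p = 0.0694) with adult beta globins, and its r was -0.93 without these 2 arrays.

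With the embryonic level, r ran from -0.58 for Kdm1a to 0.64 for Mbd2 (exact permutation p = 0.132 and 0.0731), and no p was under 0.05. Bcl11a and Zbtb7a had r = 0.28 and 0.23 with it (exact permutation p = 0.518 and 0.612). The narrow range of the embryonic level limits what such a comparison can show. Its parts varied unequally, Hba-x by 1.35, Hbb-y 1436823_x_at by 0.64 and Hbb-bh1 by 0.16 over the arrays. Knockout array 12 held the highest Hba-x (13.17) and the lowest Hbb-y value (13.16), so the mean can hide opposite changes. The embryonic globin genes were not set beside the members on their own.

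**Figure D4:**
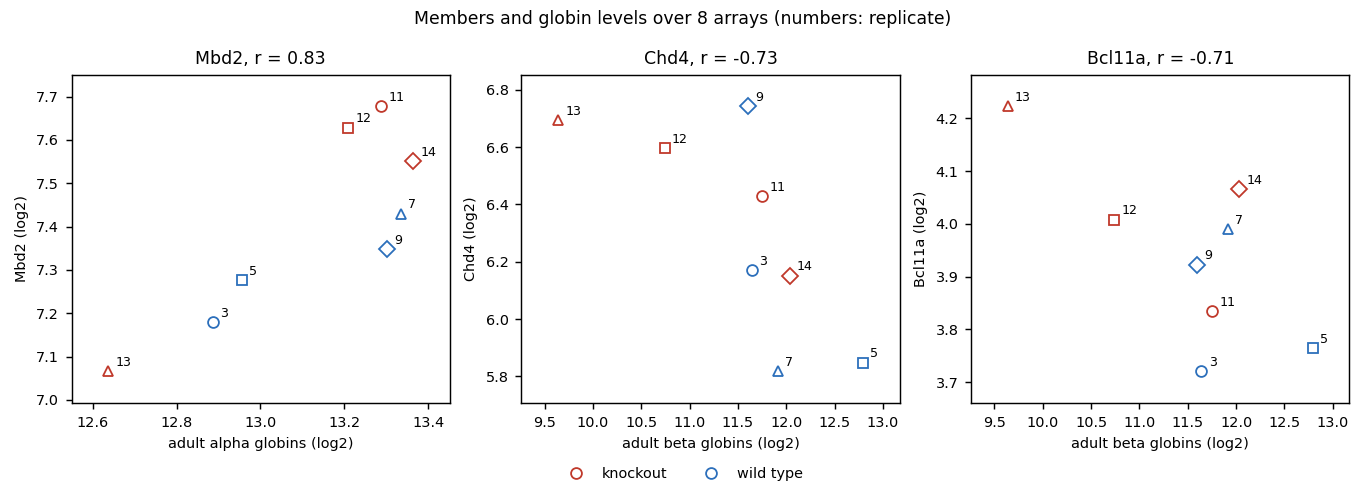
The 3 relations of smallest exact p by Pearson's r: log2 value of Mbd2, Chd4 and Bcl11a (y axes) against the adult alpha or adult beta globin level in log2 (x axes). Each point is 1 of 8 arrays with its replicate number, knockout in red and wild type in blue. Knockout array 13 lies at the low end of the globin axis in every panel, and 0 of the relations passed adjustment over 30.

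Members were also compared with one another over the 8 arrays, using only the brightest probe set of a gene. For Bcl11a this was 1419406_a_at, a dim probe set with a mean of 3.94 that varied by 0.50 over the arrays. The probe sets used for Nr2c1 and Nr2c2 were dim as well. The remaining probe sets of the members were not compared in this way, so the relations below hold for the probe sets used only. Of 45 pairs, 5 had an exact permutation p under 0.05 by Pearson's r and 0 after Benjamini-Hochberg adjustment, where the lowest adjusted p was 0.106. The receptors Nr2c1 and Nr2c2 varied together at r = 0.90 and rho = 0.81, and r was 0.69 without knockout array 14 and wild-type array 9. Dnmt1 and Hdac2 had r = 0.77 and rho = 0.45, and r was -0.24 without knockout arrays 13 and 14, so that relation rests on these arrays. Bcl11a ran against Hdac2 (r = -0.84, rho = -0.83) and against Dnmt1 (r = -0.83, rho = -0.76), and without wild-type array 3 and knockout array 13 r was -0.73 and -0.45. Chd4 ran against Nr2c2 (r = -0.80, rho = -0.88), and r was -0.81 without wild-type arrays 5 and 7. The exact permutation p of r was 0.00662 for Bcl11a with Hdac2, 0.00739 for Chd4 with Nr2c2, 0.00675 for Nr2c1 with Nr2c2, 0.00945 for Bcl11a with Dnmt1 and 0.0283 for Dnmt1 with Hdac2.

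Among 7233 genes at or above the median level, those whose values over the 8 arrays were most like Bcl11a were Dgkz (r = 0.96), Cox6a1 (r = 0.95), Cysrt1 (r = 0.94), Pi4k2a (r = 0.94) and Six5 (r = 0.93). Those most like Zbtb7a were Timm17b (r = 0.96), Mcm2 (r = 0.95), Rspry1 (r = 0.93), Snrpc (r = 0.93) and Mrpl28 (r = 0.93). With 8 arrays and so many genes, values of this size are a description only.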

How the data were processed

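Single-colour Affymetrix arrays of 8 samples were used, 4 labelled knockout and 4 wild type. The authors deposited log2 expression values per probe set and array. The submitters' processing notes name GCOS, RMA and affy, without versions or order, so probe sets below background still carry a value. The authors also deposited per probe set a signed score and its p-value and q-value, and no source used here says how it was made. Genes were named from the platform annotation through gene identifiers of GRCm38.p6, which matched 20351 of 20380 probe sets with 1 symbol. Of the 22626 probe sets, 691 named several genes and 1555 none.

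Values were used as deposited. All probe sets were fitted with limma 3.58.1 (R 4.3.3, lmFit and eBayes, no covariate) and adjusted by Benjamini-Hochberg, at 0.05. Correlations over arrays and differences of single values had exact two-sided permutation tests (Python 3.11.15). The fit was tested on simulated data. At an adjusted p of 0.05, 53 of 100 planted 2-fold changes and 75 of 100 planted 4-fold changes were recovered, with 7 false calls. The simulated noise was independent between probe sets and held no structure shared across them, unlike these arrays. The number of arrays limits the precision, and control probe sets were 0 in number, so RNA integrity was not examined. Replicates are separate pooled samples per the labels. Lists and members were chosen with earlier results of these data known. Named were all members by every probe set, the globin genes, Klf1 and Klf2, up to 3 genes of smallest p per list, and the 5 genes most like Bcl11a and Zbtb7a. The probe set of highest mean stood for a gene. The alternatives were quantile normalisation, median centring, leaving out dim probe sets, trend and robust eBayes, array weights, means over probe sets, deviations from group means and leaving out each array. Leaving out wild-type arrays 3 and 5, and knockout arrays 13 and 14, was chosen after seeing the data, as was the comparison of members with one another.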

Additional observations from a re-analysis of the deposited data

Results flagged for a closer look

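The embryonic globin level of wild-type array 3 was 13.23, where the other wild-type arrays lay between 13.46 and 13.49. This mean holds Hba-x, which was the lowest of the 8 arrays there (11.82), Hbb-y 1436823_x_at, which was the highest (13.81), and Hbb-bh1 (14.07). Hbb-y 1450621_a_at, which is not part of the mean, was near its low end there (12.87). The gap of the embryonic level to the nearest array was 0.88 of the range of the group, above the 95% critical value of Dixon's test for 4 values. Of 46 groups of values examined this way it was the 1 that stood out, and chance alone gives about 5% of groups.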

How the results depend on the processing

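By limma, 0 probe sets passed an adjusted p under each alternative. The count at an unadjusted limma p under 0.05 was 1222 on all arrays, 592 with dim probe sets left out, where fewer were tested, and 2544 with array weights. It ran from 637 to 1962 with 1 array left out (637 without wild-type array 3, 682 without 5 and 1962 without 9, and 1903 without knockout array 14), was 425 without wild-type arrays 3 and 5, and was 3056 without knockout arrays 13 and 14. The causes were not tested. Of the 20 member probe sets 2 were called on all arrays, 2 to 3 with 1 array left out and 4 without knockout arrays 13 and 14. Dnmt1 1435122_x_at ranged from -1.17 to -0.46 and Chd4 1438476_a_at from -0.63 to -0.38 over 15 alternatives, and both kept their sign. Dnmt1 1435122_x_at was past an unadjusted 0.05 in each except without wild-type arrays 3 and 5 (-0.87). Without knockout replicate 12, Dnmt1 1422946_a_at was past it too (-0.65). Signs changed in 20 of 290 values of member probe sets, none of them past an unadjusted 0.05. Of 30 relations with globin levels 0 passed adjustment on all arrays and under each of 12 alternatives. No paired analysis was possible because the groups share no replicate number. Without stated distances from background, the 10 dim member probe sets allow no statement on whether their genes are expressed.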
